A study of Cricetulus griseus with 16 samples.

Results

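The DNA replication and S phase genes described here are 46 listed genes for origin licensing, the replicative helicase, DNA polymerases, the sliding clamp, deoxynucleotide synthesis, the G1/S switch and chromatin assembly behind the fork. They were matched by name, ignoring case, to the deposited gene counts of heated hamster cells, and 43 of the 46 were found among 20824 genes. Gins2, Prim2 and Tyms were not matched by name and have no value here.

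RNA was sequenced from CHO cells (ATCC CCL-61), an established ovary line of the Chinese hamster. The 4 groups were an untreated control at 37 °C, cultures held at 42.5 °C for 1 h and cultures held at 40 °C for either 1 h or 6 h, each with 4 cultures lettered A to D. All cultures were seeded the day before, so that every group was dividing when the treatment began, and the 40 °C groups stand for fever-like heat while 42.5 °C is a moderate heat shock. The study's methods, not the sample labels, call the cultures biological repeats, so p-values here are taken to measure the spread between cultures. The hour at which the controls were collected is not given in the sources used here.

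Before S phase, the origin recognition complex, CDC6 and CDT1 load the MCM ring onto DNA, and cyclin E with its kinase then helps to turn the loaded ring into an active helicase together with CDC45 and the GINS complex. Polymerases alpha, delta and epsilon copy the strands, held to DNA by the PCNA clamp that replication factor C loads, while chromatin assembly factor 1 places histones on the new DNA. Many of these genes are targets of E2F transcription factors and are transcribed in late G1 and S phase, so their transcripts are widely used to follow proliferation in cultured cells.

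Total counts were between 10504192 and 14668365 per library. Levels are given as CPM, counts scaled to the size of the library and by TMM over all 16 libraries, and 3 counts correspond to 0.204 to 0.296 CPM. The lowest count of any member in any library was 242, and all 43 passed the filter on low counts in all 6 comparisons. How far counting error widened the spread of the members with the fewest counts was not tested. CPM are not divided by gene length, and levels are therefore compared between libraries and not between genes. In bulk RNA, fewer cells in S phase and less RNA of a gene per cell cannot be told apart.

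The heat treatment was seen in heat shock genes. Dnajb1, a co-chaperone of HSP70, stood at 28.4 ± 1.99 CPM (SD, n = 3) at 37 °C, 87.5 ± 36.5 (n = 4) after 1 h at 40 °C, 44.6 ± 6.66 after 6 h and 394 ± 127 after 42.5 °C. Hsph1, Hspb1 and Dnajb1 rose at least 1.5-fold in all 3 comparisons with 37 °C, and Hspa5, the chaperone of the endoplasmic reticulum, rose after 6 h at 40 °C and after 42.5 °C, while Hspa8 was not matched by name. With all 4 control libraries 0, 4 and 3 of these 4 genes passed the test after 1 h and 6 h at 40 °C and after 42.5 °C. Vim, an intermediate filament gene of this line, was at 2230 ± 70.5 CPM (SD, n = 3) in the controls, and Krt8 and Krt18 were not matched by name. Markers of leukocytes, endothelium, liver and matrix-forming fibroblasts (Ptprc, Pecam1, Alb and Col1a1) had group means between 0 and 0.221 CPM, and none of the 4 passed the filter on low counts. Cd68 was not matched by name.

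The control library 37 °C D stood apart from the other controls. It was left out of the tests, so that 3 control libraries were compared with 4 heated ones, and counts with all 4 controls are given beside the main ones. In D, 15 of the 43 members differed at least 1.2-fold from the average of A, B and C, against 0 members when each of A, B and C was set against the average of its companions. Of these, 2 members lay at least 1.5-fold away, Pole (log2 difference -0.66) and Gmnn (0.65). D exceeded all of A, B and C for 26 members and was below all of them for 13, with a median log2 difference of 0.14. Among all 10565 genes past the filter, 16.5% lay at least 1.5-fold away in D and 0.625% to 0.909% in A, B and C. The 2 of 43 members at that fold are to be read beside the 16.5%. For the 15 members at 1.2-fold and the 26 above and 13 below A to C, the share of all genes was not counted. Those counts therefore do not set the members apart from other genes.

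**Figure D1:**
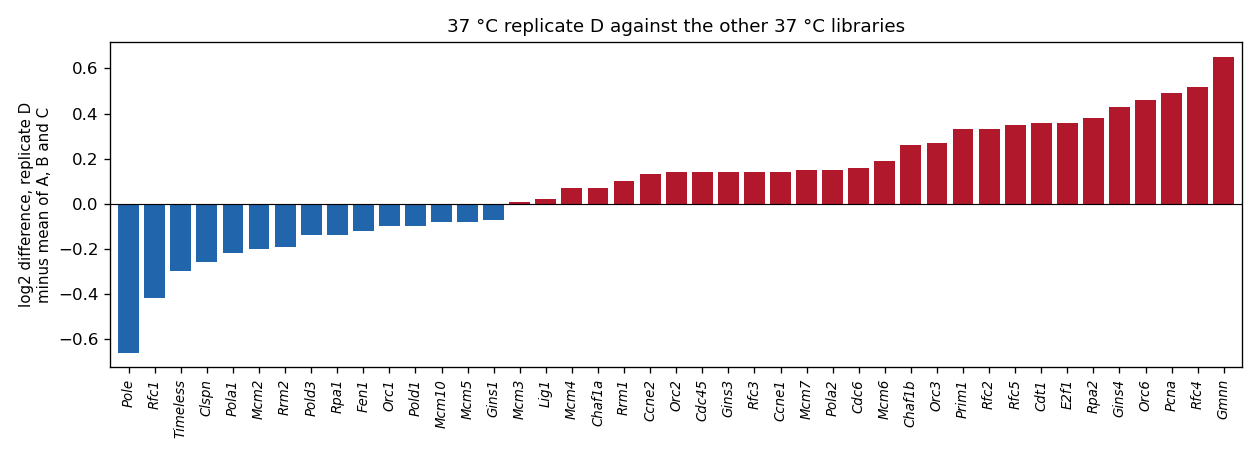
Log2 difference between the level in 37 °C replicate D and the mean of 37 °C replicates A, B and C (y axis) for each of the 43 members, ordered by that difference. The bars run from -0.66 for Pole to 0.65 for Gmnn.

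The summed level of the members was 6710.6 ± 84.4 CPM (SD, n = 3) at 37 °C, 6710.5 ± 86.6 (n = 4) after 1 h at 40 °C, 6647.4 ± 89.4 after 6 h and 6826.6 ± 86.2 after 42.5 °C, and with TMM the ranges of the 4 groups overlapped. The order depended on the scaling, since counts divided by library size alone gave 6870.2, 6787.8, 6710.1 and 6608 CPM in the same order of groups. With that scaling controls A to C ranged from 6791.3 to 6927.2 CPM, and the libraries after 6 h at 40 °C (6681 to 6739.6) and after 42.5 °C (6551.8 to 6676.5) lay wholly below them, while control D had 6712.4. The median log2 fold change of the members against 37 °C was 0.002, -0.006 and 0.018 in the 3 comparisons, beside 0, 0.001 and -0.002 over all genes tested. Within groups the members varied with a median CV of 2.59% at 37 °C (n = 3), 4.41% after 1 h at 40 °C, 5.64% after 6 h and 3.89% after 42.5 °C (n = 4 each).

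After 1 h at 40 °C, no member passed the test against 37 °C. Here and in what follows a gene passed the test at an adjusted p under 0.05 in edgeR's quasi-likelihood test with Benjamini-Hochberg adjustment over all genes tested, and a gene that also changed at least 1.5-fold is called a DEG. The count of members was 0 higher and 0 lower, beside 1.07% higher and 0.572% lower among all 10494 genes, and 0 DEGs beside 0.334%. DESeq2's Wald test also gave 0, while Cdc6 passed without a filter on low counts and without 40 °C 1 h replicate B, where 2.32% and 2.63% of all genes passed. With a block for the replicate letter Rrm2 and Cdc6 passed, where 6.04% of all genes passed. In the test as described 6 members (Cdc6, Cdt1, Prim1, Rpa2, Lig1 and Ccne2) had an unadjusted p under 0.05, beside 14.8% of all genes, with log2 fold changes between -0.11 and 0.21.

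After 6 h at 40 °C, 6 members were higher and 5 lower, beside 14.7% and 14.8% of all genes tested. That is 25.6% of the members and 29.4% of all genes, so the members' share lay near the background. None was a DEG in edgeR's test, beside 3.11% of all genes. Without 37 °C replicate B, or without 6 h replicate C, the members higher were 3 in place of 6, with 5 lower, where 19.9% and 24% of all genes passed. With all 4 control libraries 2 members (Ccne2 and Mcm10) were higher and 3 (Mcm7, Ccne1 and Lig1) lower, where 10.7% of all genes passed.

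After 1 h at 42.5 °C, 10 members were higher and 8 lower, beside 20.8% and 22.3% of all genes, or 41.9% of the members beside 43.1%. Ccne2 was the single DEG, beside 7.51% of all genes. The split between the directions depended on the scaling, since library size alone gave 4 higher and 13 lower. That scaling moved the median log2 fold change of all genes to -0.075 and that of the members to -0.056. Of all genes 42.9% passed with it, and their split by direction was not counted, so the 4 and 13 have no background. Without 37 °C replicate B 6 were higher and 6 lower, where 33.4% of all genes passed. With all 4 controls 2 (Pola1 and Mcm4) were higher and 3 (Chaf1a, Ccne2 and Pold1) lower, where 18.2% of all genes passed. The median absolute log2 fold change of the members was 0.0502, 0.0903 and 0.116 in the comparisons in this order, beside 0.0683, 0.134 and 0.159 over all genes. These comparisons share the same control libraries and are not independent of each other.

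Across the 3 comparisons with 37 °C, 20 members passed the test in none, 17 in 1, 6 in 2 and 0 in all 3. Of the 6, Cdc6, Cdt1 and Mcm4 were higher both after 6 h at 40 °C and after 42.5 °C. Pole and Lig1 were lower in both, and Ccne2 went in opposite directions. With all 4 controls Ccne2 alone passed in both, again in opposite directions. The 2 comparisons share their controls, and the share of all genes that passed in both is not given here. Of the members with every library's value below, 11 were named by a rule on size and separation of the groups, while Mcm7, Rrm2 and other members mentioned were picked after their values had been seen. As a background for the roles that follow, 29.4% of all genes tested passed after 6 h at 40 °C and 43.1% after 42.5 °C.

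**Figure D2:**
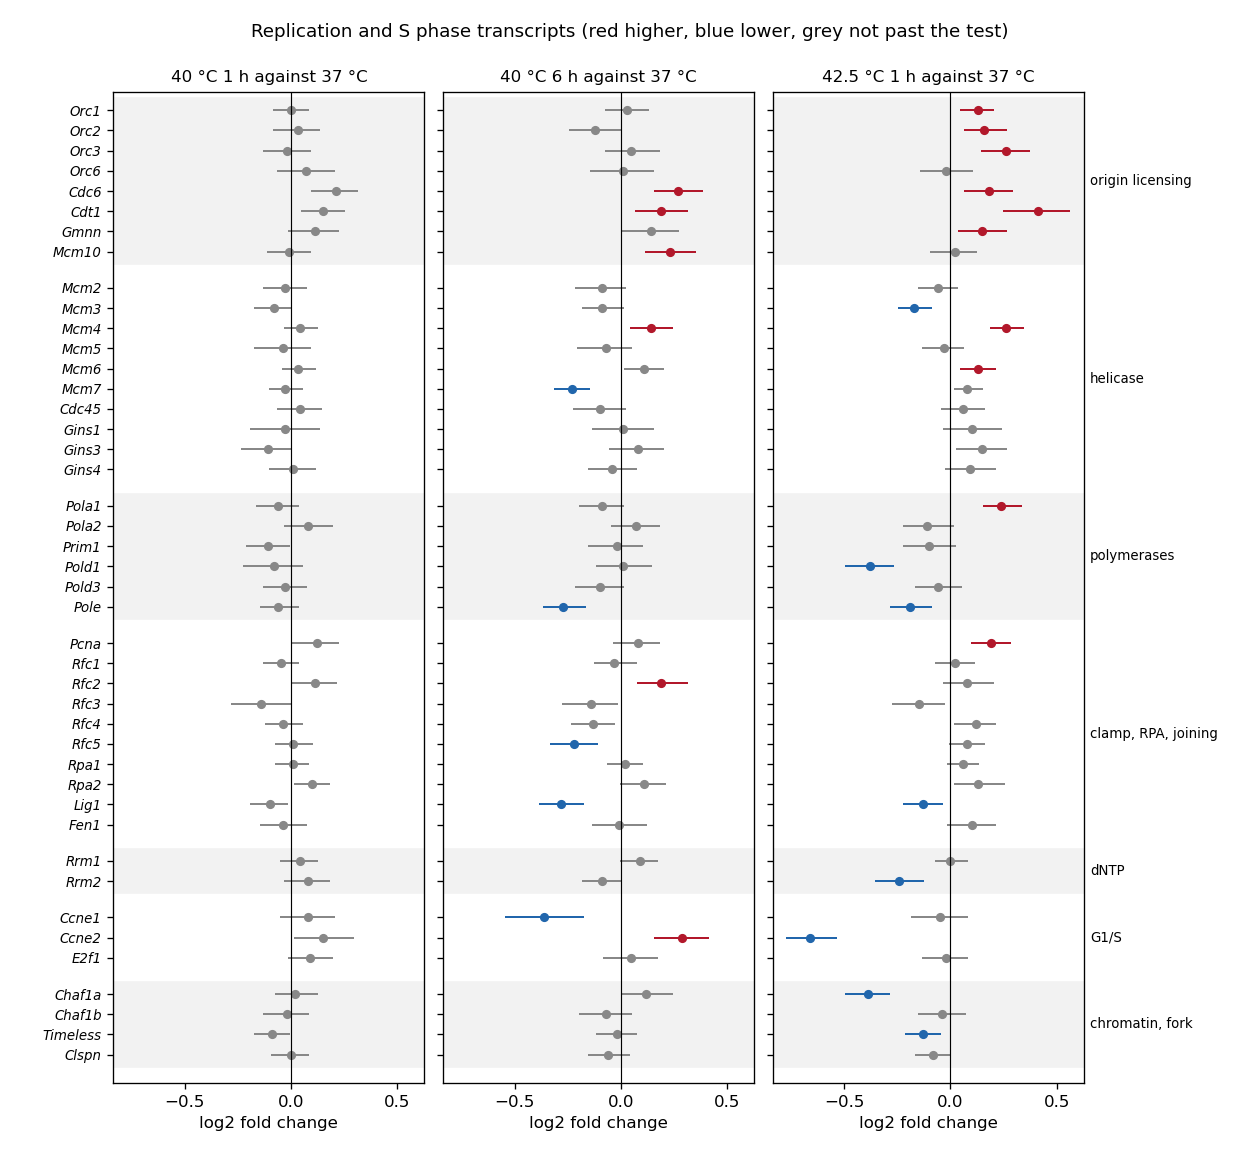
Log2 fold change (x axis) of each of the 43 members against 37 °C after 1 h at 40 °C, after 6 h at 40 °C and after 42.5 °C, from edgeR with 37 °C replicate D left out; points are estimates and lines 95% intervals. No member is coloured in the first panel, 11 are in the second and 18 in the third (10 higher and 8 lower, but 4 and 13 with library size alone), where Ccne2 lies farthest from 0.

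Among the 8 genes listed for origin recognition, MCM loading and its control, 3 rose after 6 h at 40 °C (Cdc6, Cdt1 and Mcm10), beside 14.7% of all genes higher. After 42.5 °C 6 rose (Orc1, Orc2, Orc3, Cdc6, Cdt1 and Gmnn), beside 20.8%. None fell in either comparison with TMM or with library size alone. Gmnn encodes an inhibitor of CDT1 and Mcm10 a factor that acts on the loaded helicase, so these counts are not of loading factors alone. Library size alone kept 3 higher after 6 h but only Orc3 and Cdt1 after 42.5 °C, and all 4 controls kept Mcm10 after 6 h and none after 42.5 °C. Without 37 °C replicate B Cdt1 was lost after 6 h and Orc1, Orc2 and Gmnn after 42.5 °C. Log2 fold changes of the 8 ranged from -0.12 to 0.27 after 6 h and from -0.02 to 0.41 after 42.5 °C.

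Cdt1 (ENSCGRG00001016566) encodes the factor that brings the MCM ring to origins. Its level was 81.1, 81.6 and 82.6 CPM in 37 °C A, B and C and 105 in D. The 40 °C libraries A to D gave 90.6, 84.3, 91 and 96.4 CPM after 1 h and 91.5, 103, 93.2 and 85.1 after 6 h, and those at 42.5 °C 97.5, 107, 99.7 and 130. All heated libraries were above A, B and C, but most were below D, and 42.5 °C D was the highest of all. The log2 fold change was 0.15 ± 0.05 (SE, adjusted p = 0.167) after 1 h, 0.19 ± 0.06 (adjusted p = 0.0268) after 6 h and 0.41 ± 0.08 (adjusted p = 0.000699) after 42.5 °C. With all 4 controls it was 0.09 after 6 h and 0.32 after 42.5 °C, neither past the test (adjusted p = 0.594 and 0.0753), and the result at 6 h was lost in 7 of 15 alternatives.

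Cdc6 (ENSCGRG00001023158), whose product loads MCM together with CDT1, had 85.9, 86.5 and 82.7 CPM in 37 °C A to C and 94.8 in D. After 1 h at 40 °C the libraries held 106, 91.9, 101 and 93.6 CPM, after 6 h 95.3, 111, 102 and 103, and after 42.5 °C 93.8, 97, 90 and 107. Every heated library lay above controls A to C, and D fell within the range of the heated libraries. Its log2 fold change was 0.21 ± 0.05 after 1 h (adjusted p = 0.0675), 0.27 ± 0.06 after 6 h (adjusted p = 0.0018) and 0.18 ± 0.06 after 42.5 °C (adjusted p = 0.0155), and after 1 h it passed in 3 of 15 alternatives. With D included these were 0.16, 0.23 and 0.15, none past the test (adjusted p = 0.647, 0.0587 and 0.147), and library size alone also ended the result at 42.5 °C.

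Mcm10 (ENSCGRG00001011187) helps the loaded helicase to start unwinding. The controls A to D had 84.2, 80.3, 88.6 and 79.5 CPM and the libraries after 1 h at 40 °C 83.4, 81.2, 81.4 and 89.5. After 6 h the values were 91.3, 101, 99.9 and 106 CPM, and after 42.5 °C 85.2, 92.3, 85.5 and 80. The 6 h libraries lay above all controls, D included, and above all libraries heated for 1 h at 40 °C, and the 42.5 °C libraries overlapped the controls. After 6 h the log2 fold change was 0.23 ± 0.06 (adjusted p = 0.00528), or 0.25 (adjusted p = 0.0403) with all 4 controls, and the 6 h group differed from the 1 h group at 40 °C by 0.25 ± 0.05 (adjusted p = 0.00486).

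Orc3 (ENSCGRG00001023069) encodes a subunit of the origin recognition complex and had 38.7, 38.5 and 39.4 CPM in 37 °C A to C and 46.9 in D. The 40 °C libraries gave 37.5, 37, 39.5 and 39.6 CPM after 1 h and 37.7, 43.2, 40.9 and 39.8 after 6 h, and the 42.5 °C libraries 46.4, 46.4, 45.2 and 49.3. The 42.5 °C values lay above all other libraries but control D, which fell among them. Against A to C the log2 fold change at 42.5 °C was 0.26 ± 0.06 (adjusted p = 0.00143), and against all 4 controls 0.2 (adjusted p = 0.0841). Gmnn, the inhibitor of CDT1, was also at its highest in control D, with 129 CPM against 77.9 to 88.1 in A to C, and its rise of 0.15 at 42.5 °C (adjusted p = 0.0387) was -0.03 with D included.

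Of the 11 genes of the MCM2-7 ring, CDC45 and GINS, 10 were found. After 6 h at 40 °C Mcm4 rose and Mcm7 fell, and after 42.5 °C Mcm4 and Mcm6 rose and Mcm3 fell. With library size alone Mcm4 did not pass at 6 h, and at 42.5 °C Mcm4 was higher and Mcm2 and Mcm3 lower. With all 4 controls Mcm7 alone passed after 6 h and Mcm4 alone after 42.5 °C. Subunits of one ring thus stood on both sides of 0, between -0.23 and 0.14 after 6 h and between -0.17 and 0.26 after 42.5 °C. Mcm2, Mcm5, Cdc45, Gins1, Gins3 and Gins4 passed in none of the comparisons with 37 °C.

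Mcm4 (ENSCGRG00001019609), a subunit of the helicase core, had 368, 369, 381 and 390 CPM in the controls A to D. The levels were 380, 378, 383 and 393 CPM after 1 h at 40 °C, 387, 409, 428 and 426 after 6 h and 447, 438, 450 and 462 after 42.5 °C. The 42.5 °C libraries were above all others, and the 6 h libraries were above controls A to C but not all above D. The log2 fold change was 0.14 ± 0.05 after 6 h (adjusted p = 0.0303), lost in 6 of 15 alternatives, and 0.26 ± 0.04 after 42.5 °C (adjusted p = 4.17e-05). Including D gave 0.13 (adjusted p = 0.189) and 0.26 (adjusted p = 0.00599).

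Mcm7, its neighbour in the ring, moved the other way after 6 h at 40 °C. Its levels were 441, 434, 443 and 487 CPM in the controls A to D, 433, 431, 424 and 437 after 1 h at 40 °C, 377, 383, 372 and 368 after 6 h, and 469, 462, 464 and 477 after 42.5 °C. The 6 h libraries were below every other library. The log2 fold change was -0.23 ± 0.04 after 6 h (adjusted p = 0.00068; -0.27 and adjusted p = 0.0193 with all 4 controls), and 0.08 ± 0.03 after 42.5 °C, which did not pass (adjusted p = 0.0611). The difference between the 42.5 °C and the 6 h group was 0.31 ± 0.04 (adjusted p = 4.5e-06).

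Of the polymerase and primase genes 6 of 7 were found. Pole fell after 6 h at 40 °C, and after 42.5 °C Pola1 rose while Pold1 and Pole fell. Library size alone added Pola2 and Prim1 to those lower at 42.5 °C. With all 4 controls none passed after 6 h, and Pola1 and Pold1 passed after 42.5 °C. Pola2, Prim1 and Pold3 passed in none of the comparisons with 37 °C.

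Pold1 (ENSCGRG00001002056) encodes the catalytic subunit of polymerase delta, which copies the lagging strand. It had 222, 213, 185 and 193 CPM in the controls A to D, 215, 206, 180 and 182 after 1 h at 40 °C, 221, 224, 203 and 191 after 6 h, and 169, 159, 153 and 160 after 42.5 °C. The 42.5 °C libraries were below every other library, and the 40 °C libraries overlapped the controls. At 42.5 °C the log2 fold change was -0.38 ± 0.06 (adjusted p = 6.36e-05), or -0.34 (adjusted p = 0.0111) with D. The intervals at 40 °C ran from -0.22 to 0.05 after 1 h and from -0.11 to 0.14 after 6 h.

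Pole (ENSCGRG00001009740), the catalytic subunit of polymerase epsilon on the leading strand, had 150, 146 and 147 CPM in 37 °C A to C and 93.2 in D, the lowest of all libraries. The 40 °C libraries held 142, 149, 139 and 138 CPM after 1 h and 129, 118, 120 and 126 after 6 h, and the 42.5 °C libraries 134, 139, 127 and 122. Both the 6 h and the 42.5 °C libraries lay below A to C and above D. Without D the log2 fold change was -0.27 ± 0.05 after 6 h (adjusted p = 0.000573) and -0.19 ± 0.05 after 42.5 °C (adjusted p = 0.00483), and with D it was -0.13 (adjusted p = 0.575) and -0.04 (adjusted p = 0.885). The 6 h group was also lower than the 1 h group at 40 °C, where D plays no part, by -0.21 ± 0.05 (adjusted p = 0.0055).

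Pola1, the catalytic subunit of the polymerase that starts each new strand, was between 117 and 126 CPM in 37 °C A to C, 105 in D, and between 142 and 150 after 42.5 °C. The log2 fold change there was 0.24 ± 0.04 (adjusted p = 0.000358), and 0.3 (adjusted p = 0.0186) with all 4 controls.

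The 10 genes for the clamp, its loader, the single-strand binding protein RPA and the joining of Okazaki fragments were all found. After 6 h at 40 °C Rfc2 rose and Rfc5 and Lig1 fell, and after 42.5 °C Pcna rose and Lig1 fell. With library size alone Rfc4 was also lower after 6 h, and after 42.5 °C Rfc3 and Lig1 were lower and none higher. With all 4 controls Lig1 alone passed after 6 h and none after 42.5 °C. Rfc2 and Rfc5 are subunits of the same clamp loader, at 0.19 (adjusted p = 0.0211) and -0.22 (adjusted p = 0.00755) after 6 h. Pcna had 259 to 290 CPM in controls A to C, 382 in D and 296 to 328 after 42.5 °C, so that its log2 fold change of 0.19 (adjusted p = 0.0046) was 0.06 (adjusted p = 0.72) with D. Rfc1, Rfc3, Rfc4, Rpa1, Rpa2 and Fen1 passed in none of the comparisons with 37 °C.

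Lig1 (ENSCGRG00001009260), the ligase that seals Okazaki fragments, had 148, 152, 147 and 150 CPM in the controls A to D. The libraries after 1 h at 40 °C held 143, 141, 135 and 135 CPM, those after 6 h 131, 123, 118 and 120, and those after 42.5 °C 147, 133, 140 and 127. After 6 h all values lay below those at 37 °C and those after 1 h at 40 °C, and at 42.5 °C replicate A reached the level of the lowest control. The log2 fold change was -0.1 ± 0.04 after 1 h (adjusted p = 0.258), -0.28 ± 0.05 after 6 h (adjusted p = 0.000485; 0.015 with all 4 controls) and -0.13 ± 0.05 after 42.5 °C (adjusted p = 0.0391), the last lost in 9 of 15 alternatives. The direct difference between 6 h and 1 h at 40 °C was -0.17 ± 0.05 (adjusted p = 0.0172).

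For deoxynucleotide synthesis, Rrm1 and Rrm2, the large and the small subunit of ribonucleotide reductase, were found. Rrm1 passed in none of the comparisons with 37 °C. Rrm2 had 163, 160, 153 and 139 CPM in the controls A to D, 180, 165, 171 and 152 after 1 h at 40 °C, 149, 153, 145 and 151 after 6 h and 130, 133, 124 and 151 after 42.5 °C. The 42.5 °C libraries were below controls A to C, with replicate D above the other 42.5 °C libraries and above control D. Its log2 fold change at 42.5 °C was -0.24 ± 0.06 (adjusted p = 0.00241), also lower with library size alone, and -0.19 (adjusted p = 0.136) with all 4 controls. After 1 h at 40 °C Rrm2 passed with a block for the replicate letter but not in the test as described.

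Of the G1/S switch, Ccne1 and Ccne2 encode the 2 cyclins E that drive cells into S phase and E2f1 a transcription factor for S phase genes. Ccne2 (ENSCGRG00001022482) had 40.9, 40.4, 39.3 and 44 CPM in the controls A to D and 40.2, 42.8, 48.8 and 47.3 after 1 h at 40 °C. It had 44.6, 52.1, 50.1 and 50 CPM after 6 h and 25.4, 26.4, 25.7 and 25.3 after 42.5 °C. The 6 h libraries were above all controls, while the 42.5 °C libraries were far below every other library and close to each other (SD 0.472). Its log2 fold change was 0.15 ± 0.07 after 1 h (adjusted p = 0.324), 0.29 ± 0.06 after 6 h (adjusted p = 0.00318) and -0.66 ± 0.06 after 42.5 °C (adjusted p = 7.61e-07), the last a fold of 0.635. With all 4 controls the values were 0.12, 0.25 (adjusted p = 0.0483) and -0.68 (adjusted p = 0.000164).

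Ccne1 (ENSCGRG00001015867) had 31.6, 32, 33.9 and 35.9 CPM in the controls A to D and 33.1, 37, 32.9 and 33.9 after 1 h at 40 °C. After 6 h it had 21.4, 23.2, 28.6 and 28.2 CPM, and after 42.5 °C 32.2, 29.2, 33.1 and 31.1. The 6 h libraries were below every other library but varied more than any other member did in that group (CV 14.2%, n = 4). The log2 fold change was 0.08 ± 0.06 after 1 h, -0.36 ± 0.09 after 6 h (adjusted p = 0.00752; -0.4 and adjusted p = 0.0391 with all 4 controls) and -0.05 ± 0.07 after 42.5 °C. Thus after 6 h at 40 °C the cyclin E genes went in opposite directions, and after 42.5 °C Ccne2 fell while the interval of Ccne1 ran from -0.18 to 0.08. E2f1 passed in none of the comparisons, with log2 fold changes of 0.09, 0.05 and -0.02, and stood at 68 CPM in control D against 50.6 to 55.2 in A to C.

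The 4 genes of chromatin assembly and fork protection gave 0 calls after 40 °C in edgeR's test. An unadjusted p under 0.05 was reached by 0 of them after 1 h and 1 after 6 h, beside 14.8% and 41% of all genes. After 42.5 °C Chaf1a and Timeless fell, joined by Clspn with library size alone. Chaf1a (ENSCGRG00001022507), the large subunit of chromatin assembly factor 1, had 125, 116, 120 and 126 CPM in the controls A to D and 128, 122, 114 and 123 after 1 h at 40 °C. It had 133, 144, 124 and 123 CPM after 6 h and 92.3, 94.9, 83.5 and 96.9 after 42.5 °C, below every other library. There the log2 fold change was -0.39 ± 0.05 (adjusted p = 2.58e-05), and -0.4 (adjusted p = 0.00216) with all 4 controls. Chaf1b, the second subunit, was at -0.04 (adjusted p = 0.588). Timeless, a protein that protects the fork, was at -0.13 ± 0.04 (adjusted p = 0.0152), or -0.05 (adjusted p = 0.698) with D.

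**Figure D3:**
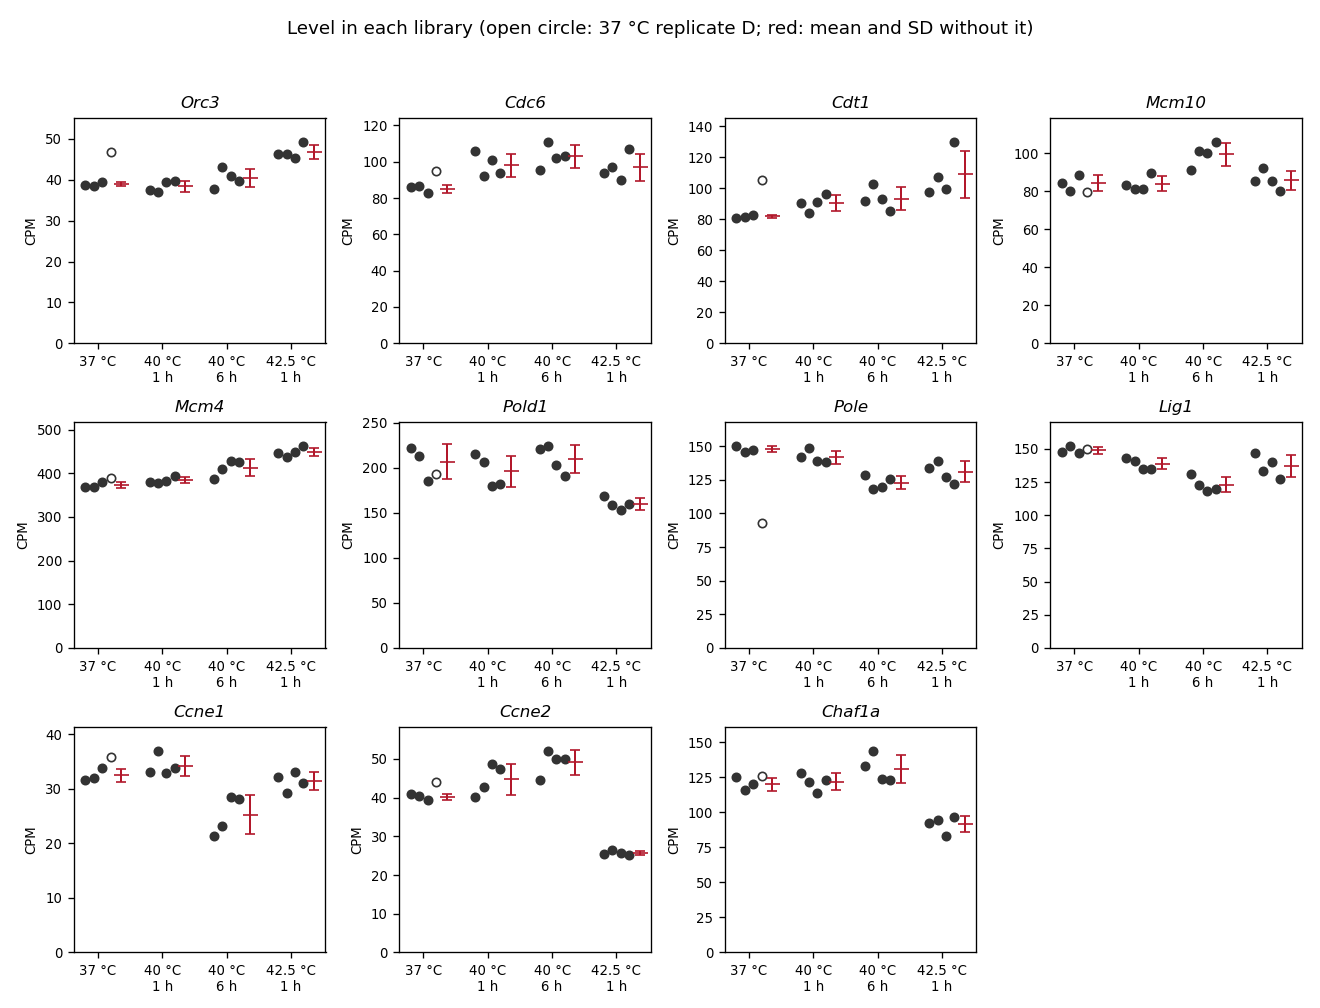
Level in CPM (y axis, from 0) of the 11 members named by the rule in each library of the 4 groups; filled circles are libraries in the tests, the open circle is 37 °C replicate D, and red bars give the mean and SD without it. Ccne2, Chaf1a and Pold1 are lowest in the 42.5 °C libraries, and Ccne1 is lowest after 6 h at 40 °C.

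The heated groups were also compared with each other, where the control libraries play no part. Between 6 h and 1 h at 40 °C, 2 members were higher (Mcm10 and Gins3) and 6 lower (Mcm7, Pole, Rfc5, Lig1, Rrm2 and Ccne1), beside 9.45% and 9.04% of all genes, and none was a DEG in edgeR's test, beside 1.28%. Ccne1 differed most, by -0.43 ± 0.09 (adjusted p = 0.00314), while Gins3, Rrm2 and Lig1 were lost in 8, 7 and 3 of 15 alternatives. Without 40 °C 1 h replicate B, or without 40 °C 6 h replicate C, 5 members passed in place of 8. Of all genes 12.8% and 12.3% passed there, in place of 18.5%.

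Between 42.5 °C and 40 °C, both for 1 h, 10 members were higher and 6 lower, beside 16.4% and 19.6% of all genes, with Ccne2 the single DEG beside 5.27%. Ccne2 was lower by -0.81 ± 0.07 (adjusted p = 6.11e-07) and Chaf1a by -0.41 ± 0.05 (adjusted p = 1.87e-05). Pola1 was higher by 0.31 ± 0.04 (adjusted p = 4.7e-05) and Orc3 by 0.28 ± 0.05 (adjusted p = 0.000912). Pole was at -0.13 (adjusted p = 0.0417), with overlapping libraries, and was lost in 6 of 15 alternatives, DESeq2's Wald test among them. With library size alone the split was 5 higher and 10 lower, at medians of -0.053 for all genes and -0.043 for the members. Of all genes 36% passed there, not counted by direction.

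The 42.5 °C group and the 6 h group differ in both temperature and time, and between them 11 members were higher and 7 lower, beside 22.5% and 24.5% of all genes. Ccne2 was again the single DEG, beside 8.25%, at -0.95 ± 0.07 (adjusted p = 9.26e-09), and Chaf1a was at -0.52 ± 0.06 (adjusted p = 2.26e-06). Ccne1 was higher at 42.5 °C by 0.3 ± 0.09 (adjusted p = 0.011). With library size alone 7 were higher and 11 lower, at medians of -0.054 for all genes and -0.019 for the members. Of all genes 45.6% passed with that scaling, not counted by direction. Without 6 h replicate B 4 were lower in place of 7, where 42.1% of all genes passed in place of 47%.

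Other genes of replication and its control were counted in the same tests, again beside 29.4% of all genes after 6 h at 40 °C and 43.1% after 42.5 °C. With all 4 controls these shares were 10.7% and 18.2%, and with library size alone 29.5% and 42.9%. Library size alone moved the median of all genes after 42.5 °C to -0.075. Its all-gene split by direction was not counted, so its splits in the lists below have no background. Of 28 tested genes for other origin, fork and polymerase functions, 7 were higher and 5 lower after 6 h (42.9%; 2 and 2 with all 4 controls), and 8 higher and 4 lower after 42.5 °C (42.9%; 5 and 5 with library size alone, 4 and 3 with all 4 controls). They included Rnaseh2a, the catalytic subunit of RNase H2 (-0.34 after 6 h), and Recql4, a helicase of origin firing (-0.35 after 42.5 °C), which both also passed with all 4 controls. Of 12 nucleotide supply genes, 1 was higher and 2 lower after 6 h (25%; 0 and 1 with all 4 controls) and 5 higher and 3 lower after 42.5 °C (66.7%; 1 and 3 with library size alone, 1 and 2 with all 4 controls). Tk1, the thymidine kinase that peaks in S phase, was lower in both (-0.3 and -0.35), also with all 4 controls. Of 9 genes of histone supply and maintenance of DNA methylation, 1 was higher and 2 lower both after 6 h and after 42.5 °C (33.3% each), or 1 and 5 after 42.5 °C with library size alone, and none passed with all 4 controls. Dnmt1, the maintenance methyltransferase, was at -0.22 and Hat1, a histone acetyltransferase, at 0.29 after 42.5 °C.

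Of 26 tested regulators of the G1/S transition, 4 were higher and 6 lower after 6 h at 40 °C (38.5%; 2 and 1 with all 4 controls), and 1 was higher and 10 lower after 42.5 °C (42.3%; 1 and 14 with library size alone, 1 and 5 with all 4 controls). After 6 h E2f5, a repressor of the E2F family, was the single DEG, with 3.01 ± 0.487 CPM (SD, n = 3) at 37 °C and 5.03 ± 0.476 (n = 4) after 6 h, a log2 fold change of 0.74 ± 0.17 (adjusted p = 0.00311) that did not pass with all 4 controls. After 42.5 °C the G1 cyclin Ccnd1 was at -0.46 ± 0.06 (adjusted p = 1.82e-05), Fbxo5, an inhibitor of the anaphase-promoting complex, at -0.51 ± 0.06 (adjusted p = 7.98e-06), and Myc at -0.39 ± 0.05 (adjusted p = 2.7e-05). Ccnd1 and Myc were also lower after 6 h at 40 °C (-0.31 and -0.3), where with all 4 controls Myc passed and Ccnd1 did not. Rb1, which restrains E2F factors, was the 1 higher after 42.5 °C (0.3).

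Of 21 genes of the S phase checkpoint and fork repair, 5 were higher and 1 lower after 6 h (28.6%; 2 and 0 with all 4 controls), and 5 higher and 4 lower after 42.5 °C (42.9%; 2 and 6 with library size alone, 2 and 1 with all 4 controls). Brca1 was higher after 6 h (0.31) and Hus1 of the checkpoint clamp after 42.5 °C (0.34), both also with all 4 controls, while the rise of Brca1 after 42.5 °C (0.15) passed neither with all 4 controls nor with library size alone. Of 19 genes of G2/M and mitosis, counted for comparison, 3 were higher and 0 lower after 6 h (15.8%; 1 and 0 with all 4 controls) and 2 higher and 4 lower after 42.5 °C (31.6%; 2 and 8 with library size alone, 1 and 2 with all 4 controls), with Plk1, a mitotic kinase, at -0.3 ± 0.04 (adjusted p = 3.94e-05). In these lists 1 gene passed after 1 h at 40 °C, the histone gene activator Npat (-0.29).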

How the data were processed

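RNA of CHO cells was sequenced from 4 cultures in each of 4 groups, 16 libraries in all. Reads were trimmed by the authors, who used CLC Genomics Workbench both to map them to CHOK1GS_HDv1 and to count them per gene. Annotation release, strandedness and the handling of reads with several mapping places are not given in the sources used here. The deposited values are raw counts per gene without normalization. The library left out, 37 °C replicate D, was identified because its counts differ from those of the control samples in the study's gene table, in which the other 15 libraries have identical counts for all 920 genes.

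Groups were compared pairwise with edgeR 4.0.16 in R 4.3.3 (quasi-likelihood test, two-sided, filterByExpr at default settings, TMM), with Benjamini-Hochberg adjustment over all genes tested. The script was tested on simulated data with changes of at least 1.5-fold, so smaller changes, as most of those given here, were not covered. CPM were scaled by TMM over all 16 libraries, and SE are the log2 fold change divided by the square root of F. Intervals are estimates ± 1.96 SE.

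Members and gene lists were chosen with earlier results of these data known. Members named by rule were every member that was a DEG against 37 °C and, in each comparison with 37 °C, the 6 with the largest absolute log2 fold change among those past the test whose libraries did not overlap between groups. Mcm7 and Rrm2, which this rule did not name, are also given in full and were picked after their values were seen. Of the other lists, up to 3 DEGs per direction were to be named, and further genes were named after their values were seen.

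Alternatives were DESeq2 size factors, library size only, DESeq2 1.42.0 with its Wald test, testing without a filter, at least 10 counts in every library, a joint fit of the 4 groups, a block for the replicate letter, all 4 control libraries, glmTreat against a 1.5-fold change, and each library left out in turn. Gene neighbours were looked up in the RefSeq table of CriGri-PICRH-1.0, in which all 46 listed members have a place and 0 pairs of them are adjacent. Promoter sequences were not analysed here.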

Additional observations from a re-analysis of the deposited data

Results flagged for a closer look

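In 3 of 44 groups of 4 libraries examined for the 11 members named by the rule, 1 library lay far from the other libraries of its group, and in each case it was 37 °C replicate D: Pole at 93.2 CPM, Cdt1 at 105 CPM and Orc3 at 46.9 CPM. By chance about 1 in 20 such groups would be expected to hold a library this far out. The 3 cannot be set against that rate, because the members were named by their separation from controls A to C with D left out. Replicate D had also been set aside beforehand. In that library, which the comparisons do not use, 15 of 43 members differed at least 1.2-fold from the average of replicates A, B and C. The share of all genes at that fold was not counted, and at 1.5-fold it was 2 members beside 16.5% of all genes. What sets replicate D apart was not tested.

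Among the members named by the rule, the effects of 2 heat treatments on the same member differed in 11 cases. The direct tests set the 6 h group and the 42.5 °C group against 1 h at 40 °C. Each of the 11 members was tested in both, and over all genes 18.5% and 36.1% passed. The members had been named for large changes in the same 6 h and 42.5 °C libraries, so their count cannot be set against these shares. Between 6 h and 1 h at 40 °C the log2 difference was 0.25 for Mcm10, -0.21 for Pole, -0.17 for Lig1 and -0.43 for Ccne1. Between 42.5 °C and 40 °C, both for 1 h, it was 0.28 for Orc3, 0.26 for Cdt1, 0.22 for Mcm4, -0.3 for Pold1, -0.13 for Pole, -0.81 for Ccne2 and -0.41 for Chaf1a. The difference of Pole at 42.5 °C was lost in 6 of 15 alternatives and that of Lig1 in 3 of 15.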

How the results depend on the processing

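Of the 17 results of members named by the rule that passed the test against 37 °C, all 17 kept their direction in every alternative but glmTreat, which tests against a 1.5-fold change, and 8 also passed in every one of these. Over 255 such fits 225 passed and 30 did not. Results lost most often were Lig1 at 42.5 °C (9 of 15), Cdt1 at 6 h (7) and Mcm4 at 6 h (6). With all 4 control libraries 5 members passed after 6 h at 40 °C, in place of 11, and 5 after 42.5 °C, in place of 18, while over all genes 1122 passed in place of 3091 and 1895 in place of 4510. After 1 h at 40 °C the count of 0 became 1 with no filter on low counts (Cdc6) and 2 in the replicate block, which fits the letters (Rrm2 and Cdc6). Among all genes it gave 634 in place of 172 there, and elsewhere 13 members in place of 11 after 6 h and 18 in place of 18 after 42.5 °C. The labels give no shared origin for a letter. Over deviations from group means 21 pairs of the same letter had a mean r of 0.06 (-0.05 to 0.2, 7 over 0.1). For 63 pairs of different letters it was -0.02 (12 over 0.1). Of 42 pairs of a library and another group, 17 had the highest r with the library's own letter, and the number expected by chance was not worked out. The main tests did not pair the libraries by letter, and these values do not exclude an effect shared by a letter. Pold1, Mcm2 and Mcm5 were higher in A and B than in C and D at 37 °C and in both 40 °C groups. With glmTreat 0 members were DEGs at 42.5 °C in place of 1. Leaving out 1 library at a time gave 0 to 1 members after 1 h at 40 °C (1, Cdc6, without 40 °C 1 h replicate B), 8 to 13 after 6 h (3 to 8 higher; 19.9% to 32.2% of all genes) and 12 to 18 after 42.5 °C (6 to 10 higher; 33.4% to 42.8% of all genes), lowest without 37 °C replicate B and after 6 h also without 6 h replicate C. Between heated groups it gave 5 to 8 for 6 h against 1 h at 40 °C, where 12.2% to 19.9% of all genes passed. The count was 5 without 40 °C 1 h replicate B and without 40 °C 6 h replicate C. For 42.5 °C against 1 h it was 12 to 16 (29.4% to 35.6% of all genes). Against 6 h it was 13 to 17 (4 to 7 lower), where 40.8% to 45.8% of all genes passed. The causes of these changes were not tested. The changes were small and the controls only 3. The counts cannot separate transcription from RNA decay, and cell cycle phases were not measured.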

Other observations

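Npat, which activates histone gene transcription at the start of S phase, was the single gene of the other cell cycle lists to pass the test after 1 h at 40 °C. Its level was 78.1, 84.1, 87.3 and 50.7 CPM in the controls A to D, 62.1, 71.2, 68.6 and 70.1 after 1 h at 40 °C, 75.9, 70.1, 71.4 and 76.4 after 6 h, and 70.8, 72, 72.6 and 59.7 after 42.5 °C. All heated libraries lay below controls A to C and above D. The log2 fold change was -0.29 ± 0.06 (adjusted p = 0.0157), -0.18 ± 0.06 (adjusted p = 0.0205) and -0.28 ± 0.07 (adjusted p = 0.00282) in the same order, and it passed in none of the 3 with all 4 control libraries.

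A few cell cycle regulators, picked after their values were seen, were higher after 6 h at 40 °C and lower after 42.5 °C, as Ccne2 was. The inhibitors of cyclin-dependent kinases Cdkn1b and Cdkn2c were at 0.26 (adjusted p = 0.00651) and 0.32 (adjusted p = 0.0127) after 6 h and at -0.3 (adjusted p = 0.00158) and -0.42 (adjusted p = 0.00213) after 42.5 °C. With all 4 control libraries Cdkn1b passed in both and Cdkn2c only after 42.5 °C, and its level in control D, 29.8 CPM, lay above those of all 6 h libraries. Wee1, a kinase that holds back entry into mitosis, was at 0.28 (adjusted p = 0.00155) and -0.3 (adjusted p = 0.00107), and passed in both with all 4 controls. Cdkn1a, another inhibitor of these kinases, was lower after 6 h, at -0.55 ± 0.11 (adjusted p = 0.0017), but not with all 4 controls, and did not pass after 42.5 °C (-0.11, adjusted p = 0.513).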
